A study of Homo sapiens with 16 samples.

Results

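The 7 abundant small noncoding RNA genes were examined across every library of the series: the signal recognition particle RNA genes RN7SL1 and RN7SL2 and their copy RN7SL4P, the 7SK RNA gene RN7SK, the RNase P RNA gene RPPH1, the U3 small nucleolar RNA gene SNORD3A and the RNase MRP RNA gene RMRP. The members were the rows of the count table that carry these symbols, 7 of 35993 rows, and all 7 were among the 21297 genes kept for testing. The libraries came from 4 human lines grown from bladder tumors, TCCSUP, RT112, J82 and 253J. Each line was exposed for 48 h either to CM-1758, an inhibitor of histone deacetylases, at the dose that inhibits that line to its half-maximal response (IC50), or to the vehicle alone (0.01% DMSO, called control), with 2 libraries per group and 16 in all. The paper's legend for these RNA data calls the controls untreated and names no vehicle there. No line carried an introduced allele, and the IC50 dose differed between lines. Each line is a single cultured tumor line, so the comparison is of treated and control cells within a line.

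These RNAs work as the cores of particles. The signal recognition particle RNA (7SL) brings ribosomes that make secreted proteins to the endoplasmic reticulum, and 7SK RNA holds the elongation kinase P-TEFb in an inactive store. RNase P trims the leading end of precursor tRNAs, RNase MRP takes part in ribosomal RNA maturation, and U3 guides early cleavages of the ribosomal RNA precursor. RNA polymerase III makes all of them but U3, which is made by RNA polymerase II, and none carries the long poly(A) tail on which mRNA selection depends. They were measured here because the libraries were made from total RNA depleted of ribosomal RNA.

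The 3 signal recognition particle rows were compared by sequence first, since this decides how far they can be told apart. The sequences used were GENCODE release 29 transcripts on GRCh38, whereas the count table was made on GRCh37 and gives no coordinates. Each of the 3 is a single exon. RN7SL1 lies opposite the ribosomal protein gene RPS29 and RN7SL4P opposite ANKRD28. On the same strand RN7SL1 overlaps AL139099.4 and RN7SL2 overlaps AL627171.2. The copies differed in 52 of 300 alignment columns. RN7SL1 and RN7SL2 were 98.7% identical and differed in 4 of 299 aligned columns, and 63.2% of the 50-base windows of RN7SL1 occurred unchanged in RN7SL2. RN7SL4P was 85.6% identical to RN7SL1. Its differences sat at the end of the RNA, with 5 differing columns among the first 100, 0 among the next 100 and 47 among the last 100. Reads from the shared stretches cannot be assigned to 1 copy by sequence, so each copy's own level is uncertain and the sum of the copies is given beside it. SNORD3A had the same limit: it was 99.5% identical to SNORD3B-1, SNORD3B-2 and SNORD3C and 98.6% identical to SNORD3D.

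RN7SK, RPPH1 and RMRP have no such near-identical pair among the members, and their sequences are shown because they are the members that changed. RN7SK lies at chr6:52995621-52995948 (GRCh38) on the plus strand, with capitals on its 3 GATC stretches. These are the letters of a motif in its first hairpin that HEXIM1 binds. The capitals mark every match and do not show which of the 3 form that site. The first 300 bases are given of RN7SK, which has 328, and of RPPH1, which has 333. RPPH1 lies at chr14:20343075-20343407 on the minus strand and RMRP at chr9:35657751-35658018 on the minus strand. On the same strand RPPH1 overlaps AL355075.4 and RN7SK overlaps RF00100, while RMRP overlaps no other gene of this annotation. Whether these overlaps moved the counts was not tested. The capitals in RPPH1 and RMRP mark the only stretch of 9 bases or more that the sequences have in common, positions 146 to 154 of RPPH1 and 243 to 251 of RMRP counted from the first base. RNase P and RNase MRP share most of their proteins, but no 50-base window of RPPH1 occurred in RMRP.
RN7SK: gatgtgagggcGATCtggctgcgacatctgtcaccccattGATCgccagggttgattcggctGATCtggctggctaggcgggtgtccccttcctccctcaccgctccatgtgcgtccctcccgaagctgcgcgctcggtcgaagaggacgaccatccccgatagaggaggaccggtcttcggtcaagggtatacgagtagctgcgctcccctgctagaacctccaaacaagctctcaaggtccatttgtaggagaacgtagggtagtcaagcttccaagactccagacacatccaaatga
RPPH1: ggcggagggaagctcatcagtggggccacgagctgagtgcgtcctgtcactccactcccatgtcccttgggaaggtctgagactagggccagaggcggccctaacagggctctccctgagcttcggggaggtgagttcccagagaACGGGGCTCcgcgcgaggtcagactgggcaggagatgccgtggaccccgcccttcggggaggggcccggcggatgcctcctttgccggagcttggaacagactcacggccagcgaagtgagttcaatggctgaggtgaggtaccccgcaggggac
RMRP: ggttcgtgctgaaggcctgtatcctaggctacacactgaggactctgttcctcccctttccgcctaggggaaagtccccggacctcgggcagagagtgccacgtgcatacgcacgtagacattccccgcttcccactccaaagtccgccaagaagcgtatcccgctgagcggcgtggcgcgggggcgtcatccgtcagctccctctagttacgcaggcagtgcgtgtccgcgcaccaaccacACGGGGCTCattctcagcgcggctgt

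The libraries held 22506431 to 32537104 counts. The lowest count of any member in any library was 41413, and the largest counting error was 0.491% of a member's count, so the spread between libraries and not the depth set the precision. Replicates of a group correlated at 0.983 to 0.991 (Pearson, over all genes on the log2 scale) and differed by 12.6 to 79.4 times the counting variance, so in no group were the 2 libraries the same library deposited again. Epithelial markers were uneven between lines. RT112 held all 7 at 37.4 CPM or more (counts scaled to an equal library total), whereas GATA3 and EPCAM averaged at most 2.06 CPM in 253J and J82, and KRT7 at most 5.95 CPM in 253J and TCCSUP. The keratins KRT8, KRT18 and KRT19 averaged 47.2 CPM or more in every group of the 4 lines. CDH1 ran from 3.82 CPM in the J82 controls to 873 CPM in treated RT112. Among the markers of leukocytes and endothelium, CD3E was too low to be tested, and the leukocyte gene PTPRC averaged at most 1.12 CPM outside the TCCSUP controls, where it stood at 9.58 CPM. That its level fell in TCCSUP (-3.10), where the share below was highest, is given as a value, and its part in the shares was not tested.

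The 7 genes together took 9.58 to 21.3% of all counts in a library, and the share was highest after CM-1758 in TCCSUP. In 253J they took 9.58% and 11.2% in the control libraries and 16% and 13.9% after CM-1758, a mean of 10.4% ± 1.16 against 15.0% ± 1.48 (SD, n = 2). In TCCSUP they took 12.4% and 12.1% in the controls and 19.3% and 21.3% after CM-1758, a mean of 12.3% ± 0.239 against 20.3% ± 1.45. In both lines the treated libraries lay above the controls. The J82 means were 13.0% ± 0.236 in the controls and 14.6% ± 2.01 after CM-1758, where the lower treated library stood at 13.2%, next to a control at 13.2%. The RT112 means were 10.7% ± 1.55 and 10.7% ± 0.691, and the groups overlapped. With 2 libraries against 2, an exact permutation test of a single share cannot reach the usual threshold, so the shares are given without a test. A share also moves when the rest of the RNA moves: in bulk samples fewer cells of a kind, less RNA per cell and more of these RNAs cannot be told apart.

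**Figure D1:**
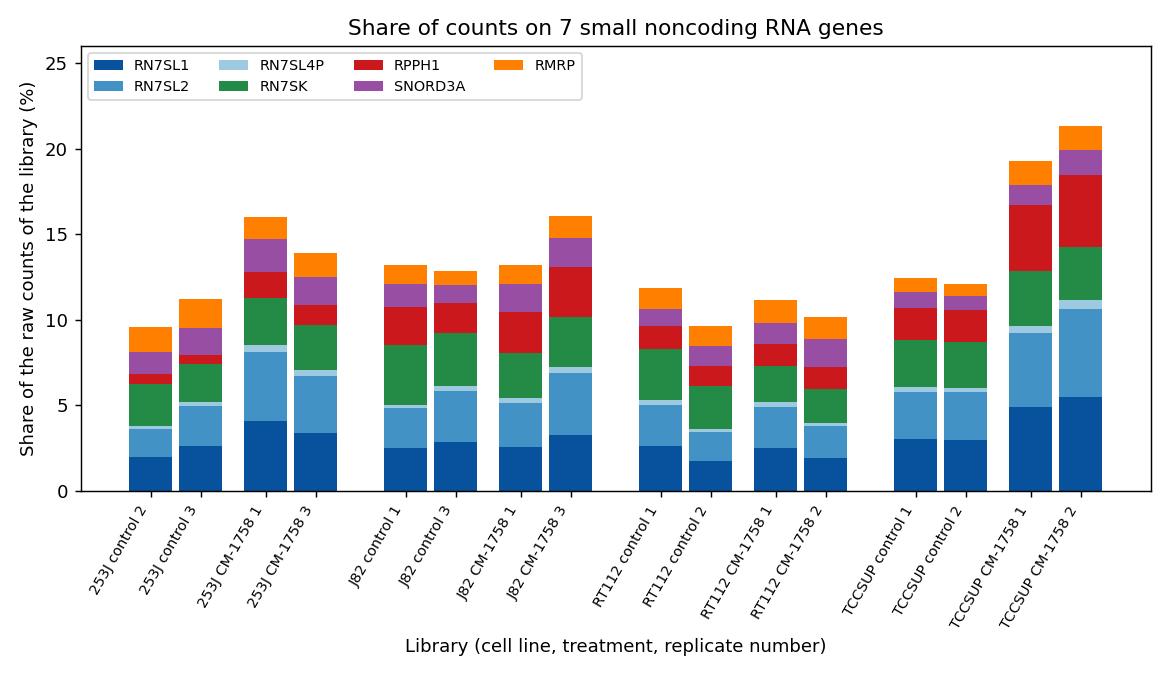
Share of the raw counts (%, vertical axis) on each of the 7 genes, stacked, in the 16 libraries (horizontal axis: cell line, treatment and replicate number). The TCCSUP libraries treated with CM-1758 reach 19.3% and 21.3%, above every other library.

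The share was concentrated on few genes. By mean count over the libraries RN7SL1, RN7SL2 and RN7SK held ranks 1, 2 and 3 of all genes, RPPH1, SNORD3A and RMRP ranks 4, 5 and 6, and RN7SL4P rank 11. Corrected for length, as CPM per kilobase of RNA on the library total, the medians over 16 libraries were 91757 for RN7SL1, 88683 for RN7SL2, 82869 for RN7SK, 60222 for SNORD3A, 49194 for RPPH1, 47778 for RMRP and 8971 for RN7SL4P. The RPPH1 level was the most variable, from 16072 to 127363 on this per-length scale. RN7SL4P ranked last among the 7 in every library.

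The effect of CM-1758 was then tested in each line with edgeR's quasi-likelihood test, fitted over all 8 groups with TMM scaling, and a gene was called at a Benjamini-Hochberg adjusted p under 0.05. Levels below are CPM after TMM scaling, and changes are log2 fold changes of CM-1758 over control with their standard error. In 253J 1 of the 7 genes rose, RPPH1, and 1 fell, RMRP, where 28.8% of all tested genes rose and 22.4% fell. In TCCSUP 2 rose, RPPH1 and RMRP, and 0 fell, against 32% and 22.1% of all genes. In RT112 0 rose and 1 fell, RN7SK, against 27.4% and 20.2%. In J82 none of the 7 passed in this fit, against 24% and 18.5% of all genes, and none had an unadjusted p under 0.05 except RN7SK at 0.0478, which DESeq2 with all lines in 1 model and edgeR with no filter on low counts called lower. A count of 1 or 2 of 7 lies near these shares of all genes. Treated and control libraries did not overlap for 5 of the 7 genes in 253J, where 73% of all genes did not, for 2 in J82 (62.7%), for 2 in RT112 (74.3%) and for 6 in TCCSUP (78.5%). None of the 7 passed the thresholds the study used, an adjusted p under 0.01 and a log2 fold change beyond 2, which 17.5% of all genes passed in TCCSUP, 12.9% in 253J, 12.8% in RT112 and 10.1% in J82, in either direction.

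**Figure D2:**
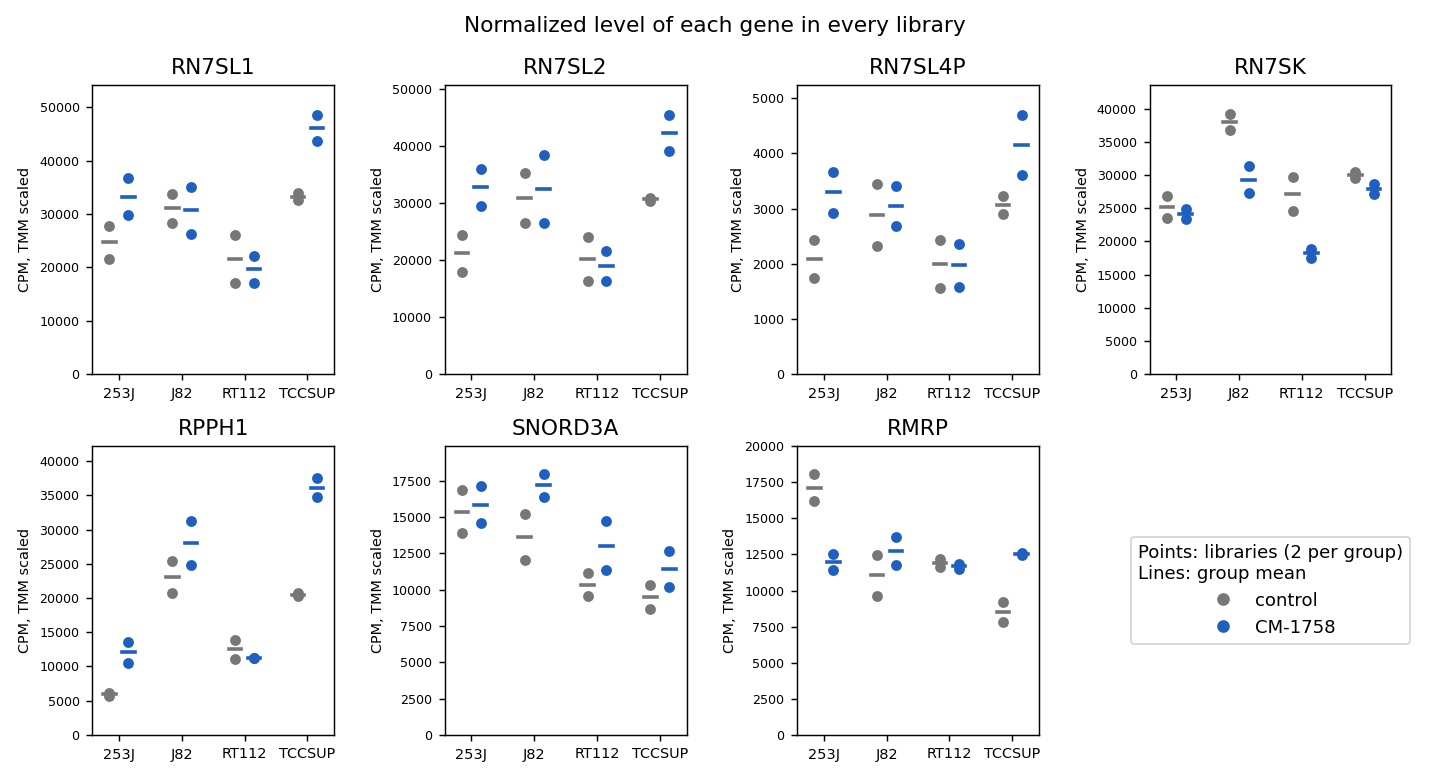
Level of each gene (CPM after TMM scaling, vertical axis) in every library of the 4 cell lines (horizontal axis), with grey points for control, blue points for CM-1758 and a line at the mean of 2 libraries. RPPH1 stands higher after CM-1758 in 253J and TCCSUP, and RMRP lower in 253J and higher in TCCSUP.

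RPPH1, the catalytic RNA of RNase P, showed the largest change of any of the 7 genes in these comparisons. In 253J its control libraries stood at 6192 and 5668 CPM and its treated libraries at 13641 and 10458 CPM. The change was 1.02 ± 0.20 on the log2 scale, 2.03-fold (adjusted p = 0.000513), and the groups did not overlap. In TCCSUP the controls stood at 20265 and 20726 CPM and the treated libraries at 34763 and 37546 CPM, a change of 0.82 ± 0.20 or 1.76-fold (adjusted p = 0.00275), again without overlap. In J82 the controls, at 25439 and 20738 CPM, overlapped the treated libraries at 24826 and 31259 CPM (0.28, adjusted p = 0.273). In RT112 the controls at 13848 and 11125 CPM likewise overlapped the treated libraries at 11173 and 11301 CPM (-0.15, adjusted p = 0.56).

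The 4 effects on RPPH1 were not equal. The test of the difference between the lines gave an adjusted p of 0.00875 in edgeR, in a table in which 51.9% of all genes differed in this way. The effect in 253J exceeded that in RT112 by 1.17 ± 0.28 (adjusted p = 0.00487, where 30% of all genes differed in either direction), and the effect in TCCSUP exceeded that in RT112, a difference of -0.97 ± 0.28 when written as RT112 minus TCCSUP (adjusted p = 0.0166, against 27.5% of all genes). 253J and TCCSUP themselves were not told apart (0.20 ± 0.28, adjusted p = 0.675). Averaged over the lines the change of RPPH1 was 0.49 ± 0.10 (adjusted p = 0.000419), a call that 36.9% of all genes shared in that direction.

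RMRP, the RNA of RNase MRP, moved in opposite directions in 253J and TCCSUP. In 253J its controls stood at 16188 and 18038 CPM and its treated libraries at 11431 and 12498 CPM, a change of -0.52 ± 0.18 (adjusted p = 0.023). In TCCSUP its controls stood at 9170 and 7813 CPM and its treated libraries at 12617 and 12453 CPM, a change of 0.56 ± 0.18 (adjusted p = 0.0141). In both lines the groups did not overlap. In RT112 the 4 libraries lay between 11512 and 12193 CPM (-0.03, adjusted p = 0.949), and in J82 the groups overlapped, with 12464 and 9624 CPM in the controls and 11736 and 13720 CPM after CM-1758 (0.20, adjusted p = 0.377). The treated levels of RMRP thus lay between 11431 and 13720 CPM in all 4 lines, while the control levels ran from 7813 to 18038 CPM.

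The difference between the lines was past the threshold for RMRP too (adjusted p = 0.0124). The effects in 253J and TCCSUP differed by -1.08 ± 0.25 (adjusted p = 0.00436, against 28.6% of all genes in either direction), and those in 253J and J82 by -0.72 ± 0.25 (adjusted p = 0.0393, against 30%). The mean over the lines was 0.06 ± 0.09 (adjusted p = 0.664). The fall in 253J was sensitive to the scaling and to single libraries. It was -0.25 with the library total alone as the scale (adjusted p = 0.268), -0.44 without 253J control replicate 3 (adjusted p = 0.105) and -0.45 without 253J CM-1758 replicate 1 (adjusted p = 0.1). The rise in TCCSUP was 0.45 without TCCSUP control replicate 2 (adjusted p = 0.122).

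RPPH1 and RMRP could also be read against each other inside a library, where no scaling enters. The ratio of RPPH1 to RMRP counts in 253J was 0.383 and 0.314 in the controls and 1.19 and 0.837 after CM-1758, so that RMRP was the more abundant RNA of the pair before treatment and the pair was nearly even afterwards. In TCCSUP the ratio was 2.21 and 2.65 in the controls and 2.76 and 3.02 after CM-1758. In J82 it was 2.04 and 2.15 against 2.12 and 2.28, and in RT112 1.14 and 0.958 against 0.943 and 0.982, both with overlap. The treated 253J libraries lay well above both controls, while in TCCSUP the gap between the groups was smaller than the gap between the 2 controls.

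**Figure D3:**
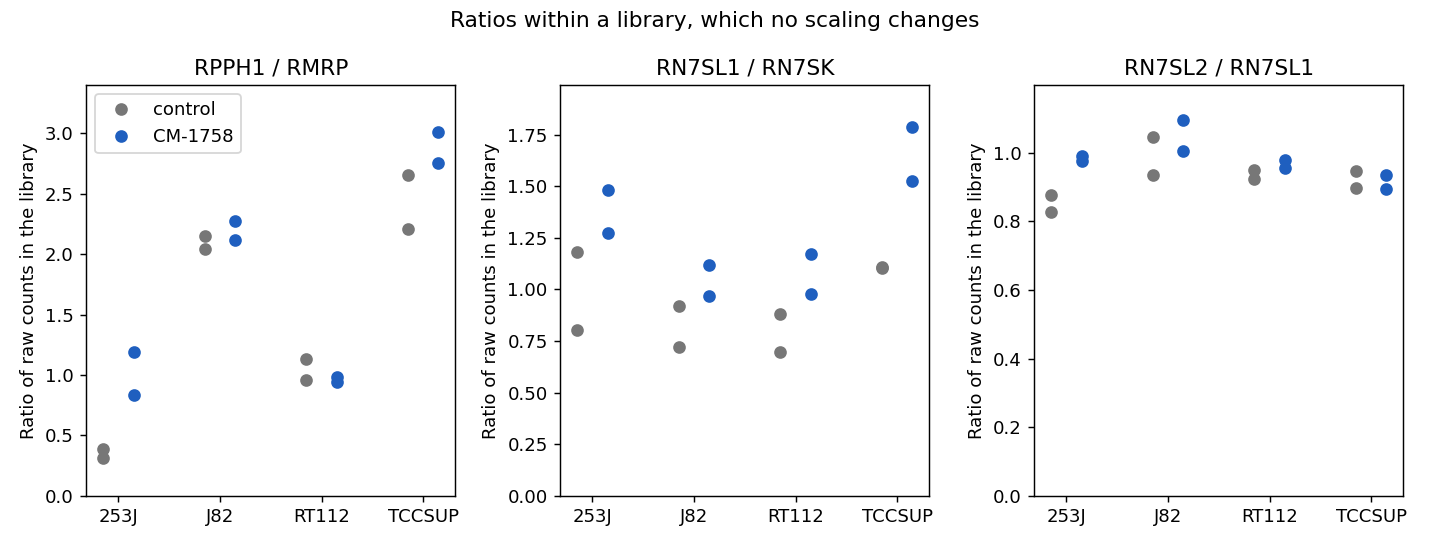
Ratios of raw counts inside each library (vertical axis) for RPPH1 to RMRP, RN7SL1 to RN7SK and RN7SL2 to RN7SL1 in the 4 cell lines, with grey points for control and blue points for CM-1758. RPPH1 to RMRP in 253J is 0.383 and 0.314 in the controls and 1.19 and 0.837 after CM-1758.

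RN7SK, the 7SK RNA, had estimates below 0 in every line under TMM scaling with the filter used here, and its fall passed the test in RT112. There its controls stood at 29692 and 24562 CPM and its treated libraries at 18881 and 17496 CPM, a change of -0.58 ± 0.17 or 0.67-fold (adjusted p = 0.0132). In J82 the controls at 39275 and 36804 CPM lay above the treated libraries at 27258 and 31397 CPM (-0.38 ± 0.17, adjusted p = 0.0971). In 253J the values were 26894 and 23546 CPM against 24840 and 23376 CPM (-0.07), and in TCCSUP 30521 and 29599 CPM against 28676 and 27183 CPM (-0.11). The mean over the lines was -0.28 ± 0.09 (adjusted p = 0.0106), a call that 25% of all genes shared in that direction. The estimates in 253J and TCCSUP were close to 0 and turned above it with the library total as the scale (0.21 and 0.21) and, under TMM, among genes with at least 10 counts in every library (0.0162 and 0.0453). The mean over the lines was then -0.06 (adjusted p = 0.595) and -0.16 (adjusted p = 0.206). The RT112 fall was -0.45 among those genes (adjusted p = 0.108), -0.44 without RT112 control replicate 1 (adjusted p = 0.115) and -0.53 without RT112 CM-1758 replicate 2 (adjusted p = 0.0758). The lines were not shown to differ in their effect on RN7SK (adjusted p = 0.238), but with the library total without the 7 genes as the scale the difference passed (adjusted p = 0.0243).

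The signal recognition particle RNAs stood higher after CM-1758 in 253J and TCCSUP without passing the test in the fit used here. Other scalings and models called more of the 7 genes higher in both lines, with the counts given in the last section. With the library total as the scale, the mean rises of RN7SL1, RN7SL2 and RN7SL4P over the 4 lines passed (0.41, 0.49 and 0.51). RN7SL1 was at 21650 and 27845 CPM in the 253J controls and at 36772 and 29787 CPM after CM-1758 (0.43 ± 0.24, adjusted p = 0.154). In TCCSUP it was at 33878 and 32624 CPM against 43760 and 48629 CPM (0.47 ± 0.24, adjusted p = 0.109). The treated libraries lay above the controls in both lines. In J82 and RT112 the groups overlapped, with changes of -0.02 and -0.14. RN7SL2 gave 0.63 ± 0.26 in 253J (adjusted p = 0.0556), 0.07 in J82, -0.09 in RT112 and 0.47 in TCCSUP (adjusted p = 0.144). RN7SL4P gave 0.66 ± 0.27 in 253J (adjusted p = 0.0583), 0.08, -0.02 and 0.44 in the other lines in the same order.

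The sum of the 3 copies does not depend on how reads were split among them only if each shared read was counted once. The counting rule is not given, and the near-identical further copy RN7SL3 is not in the sum. The sum changed by 0.53 ± 0.26 in 253J (48028 to 69305 CPM, adjusted p = 0.1) and by 0.47 ± 0.26 in TCCSUP (66969 to 92677 CPM, adjusted p = 0.138). It changed by 0.03 in J82 and by -0.11 in RT112. The 253J values lay close to the threshold: without 253J control replicate 3, RN7SL2 and RN7SL4P rose by 0.86 and 0.91 and passed it (adjusted p = 0.0394 and 0.0438), while without 253J control replicate 2 they gave 0.42 and 0.43. Against RN7SK inside the same library, RN7SL1 stood higher after CM-1758 in all 4 lines, with ratios of 0.805 and 1.18 against 1.48 and 1.27 in 253J, 0.722 and 0.918 against 0.967 and 1.12 in J82, 0.879 and 0.697 against 1.17 and 0.979 in RT112, and 1.11 and 1.10 against 1.53 and 1.79 in TCCSUP. In none of the lines did the 2 groups overlap in this ratio. How often ratios of other genes do so was not computed, and 62.7 to 78.5% of single genes did not overlap. In J82 and RT112 RN7SL1 itself changed by -0.02 and -0.14, and RN7SK by -0.38 and -0.58.

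The mix of the copies varied between libraries. RN7SL2 stood at 0.829 and 0.877 of RN7SL1 in the 253J controls and at 0.976 and 0.992 after CM-1758, so that the groups did not overlap. It ran from 0.935 to 1.10 in J82 and from 0.895 to 0.948 in TCCSUP, with overlap, and in RT112 it was 0.925 and 0.951 in the controls and 0.979 and 0.955 after CM-1758, without overlap. RN7SL3, a further copy that is no member and is 97.7% identical to RN7SL1, stood at 0.0637 and 0.0725 of RN7SL1 in the 253J controls, at 0.0467 and 0.0532 in the treated 253J libraries and at 0.0148 to 0.0190 in the libraries of the other lines. In control cells RN7SL3 was higher in 253J than in J82 by 1.59 ± 0.24 on the log2 scale (adjusted p = 4.11e-05), than in RT112 by 2.11 (adjusted p = 2.59e-06) and than in TCCSUP by 1.68 (adjusted p = 2.68e-05). Its change with CM-1758 was 0.60 ± 0.23 in TCCSUP (adjusted p = 0.0418) and -0.04, -0.01 and -0.16 in 253J, J82 and RT112, and each single library left out of TCCSUP ended that call (0.51 to 0.68).

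SNORD3A, the main U3 row, passed the test in no line under TMM and had no unadjusted p under 0.05 in the fit used here. DESeq2 on RT112 alone called it higher in that line (0.34, adjusted p = 0.0351), and edgeR called it higher in TCCSUP with the library total as the scale (0.58, adjusted p = 0.0321). Its control and treated libraries were at 15223 and 12047 against 16369 and 17965 CPM in J82 and at 9526 and 11128 against 11337 and 14719 CPM in RT112. In both lines the treated libraries lay above the controls by a narrow gap (0.33 ± 0.21, adjusted p = 0.213, and 0.34 ± 0.21, adjusted p = 0.194). In 253J the change was 0.04 and in TCCSUP 0.26 (adjusted p = 0.295), with overlap. The mean over the 4 lines was 0.24 ± 0.10 (adjusted p = 0.0508), and it passed in 8 of the 16 fits that left out 1 library (0.27 to 0.29). It also passed with RLE scaling (0.31, adjusted p = 0.017), with no filter on low counts (0.24, adjusted p = 0.0249), among genes with at least 10 counts in every library (0.36, adjusted p = 0.0132) and with the library total (0.46, adjusted p = 0.00147). Summing SNORD3A with the 4 other U3 rows gave 0.02, 0.33, 0.34 and 0.27 in 253J, J82, RT112 and TCCSUP, with adjusted p from 0.19 to 0.989. Among those rows SNORD3C alone passed, in RT112 (0.57 ± 0.22, adjusted p = 0.0467).

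**Figure D4:**
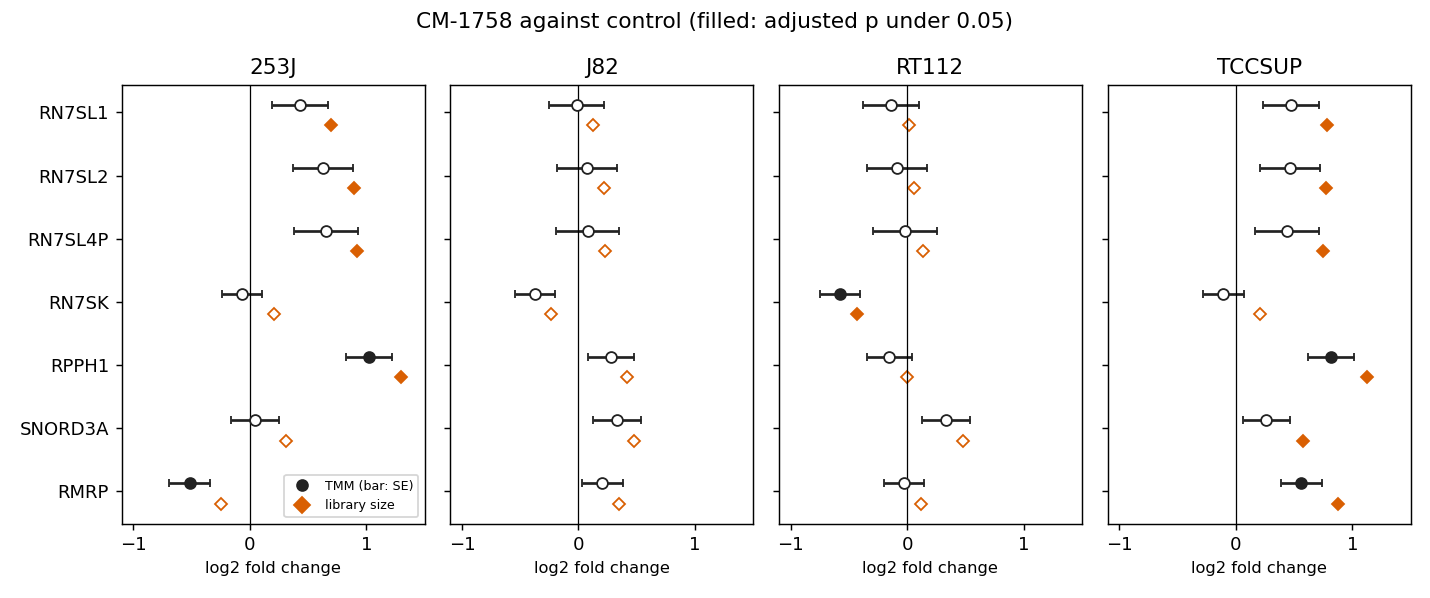
log2 fold change of CM-1758 over control (horizontal axis) for the 7 genes (vertical axis) in each cell line, as black circles with standard errors for TMM scaling and orange diamonds for scaling by the library total, filled where the adjusted p is under 0.05. The diamonds lie to the right of the circles in every line, and the number filled goes from 2 to 4 in 253J and from 2 to 6 in TCCSUP.

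The scale mattered for the direction of the smaller changes. Scaling by the library total in place of TMM moved the median change of all tested genes in TCCSUP from 0.20 to 0.51, in 253J from 0.10 to 0.37, in RT112 from 0.12 to 0.27 and in J82 from 0.05 to 0.19. On that scale 4 of the 7 genes rose in 253J and 6 in TCCSUP, where 36.4% and 41.8% of all tested genes rose. Leaving the 7 genes out of the TMM calculation left those medians at 0.20, 0.10, 0.12 and 0.05. That could hardly be otherwise, because TMM by default trims the most abundant genes, the 7 among them. Under TMM the 7 genes had a median change of 0.47 in TCCSUP, 0.43 in 253J, 0.08 in J82 and -0.09 in RT112.

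The control libraries were compared to see how far the lines differed without CM-1758. RPPH1 was lowest in 253J, at -1.96 ± 0.20 against J82 (adjusted p = 9e-07), -1.79 against TCCSUP (adjusted p = 2.35e-06) and -1.07 against RT112 (adjusted p = 0.000279). It was higher in J82 than in RT112 (0.89, adjusted p = 0.0014) and lower in RT112 than in TCCSUP (-0.71, adjusted p = 0.00655), while J82 and TCCSUP did not differ beyond their spread (0.17 ± 0.20, adjusted p = 0.517). RMRP had nearly the reverse order. It was highest in 253J, by 0.63 against J82 (adjusted p = 0.00681), 0.52 against RT112 (adjusted p = 0.0197) and 1.01 against TCCSUP (adjusted p = 0.000189), and it was higher in RT112 than in TCCSUP (0.49, adjusted p = 0.0302). Of all genes, 53.1% were called in either direction between 253J and J82, 54.3% between 253J and RT112, 53.1% between 253J and TCCSUP, 52.1% between J82 and RT112, 48% between J82 and TCCSUP and 51.5% between RT112 and TCCSUP.

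The other members differed less between control lines. SNORD3A was higher in 253J than in RT112 (0.57, adjusted p = 0.0278) and TCCSUP (0.69, adjusted p = 0.0103), and higher in J82 than in TCCSUP (0.52, adjusted p = 0.0483). RN7SK was higher in J82 than in RT112 (0.49, adjusted p = 0.0281) and lower in 253J than in J82 (-0.59, adjusted p = 0.00953). RN7SL1 was lower in RT112 than in TCCSUP (-0.62, adjusted p = 0.0418). RN7SL2 and RN7SL4P passed in no pair of lines in this fit, and their largest estimates were 0.61 and -0.62, between J82 and RT112 and between RT112 and TCCSUP. In all, 15 of the 42 comparisons of a member between control lines were called, where 48 to 54.3% of all genes were called in a pair. Fewer were called without RT112 control replicate 2. The number was 20 with no filter on low counts and 10 with the library total or among genes with at least 10 counts in every library. The shares of all genes called between control lines in those other fits are not given here.

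The protein partners of these RNAs were described from lists of each particle, beside the medians of all genes under TMM of 0.10, 0.05, 0.12 and 0.20 in 253J, J82, RT112 and TCCSUP. Of the signal recognition particle proteins and receptor subunits, 8 were tested. In that order of lines 2, 1, 1 and 1 rose and 2, 4, 5 and 5 fell, and the list medians were 0.04, -0.40, -0.69 and -0.85. SRP72, which binds 7SL RNA together with SRP68, fell in all 4 lines (-0.58 to -1.16). SRP54, the subunit that binds signal peptides, rose in 253J (0.54), J82 (0.42) and TCCSUP (0.46). SRPRB, which anchors the receptor in the membrane, fell in 253J (-1.25), RT112 (-1.04) and TCCSUP (-1.02).

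Of 7 proteins of the 7SK particle and P-TEFb, 1, 0, 1 and 2 rose and 2, 2, 3 and 2 fell, with list medians of -0.03, -0.29, -0.17 and -0.12. MEPCE, the enzyme that caps 7SK RNA, fell in every line, with changes of -2.52 in J82, -1.55 in 253J, -1.51 in RT112 and -1.39 in TCCSUP, each with a standard error of 0.17 (adjusted p from 7.47e-08 to 8.85e-06). CCNT2, a cyclin of P-TEFb, also fell in every line (-0.80 to -1.39). CCNT1, the other P-TEFb cyclin on the list, rose in TCCSUP (0.48). Its estimates in 253J, J82 and RT112 were -0.10, -0.02 and -0.17 and did not pass. LARP7, which protects the end of 7SK RNA, fell in RT112 (-0.46). Its estimates in 253J, J82 and TCCSUP were -0.03, -0.29 and -0.27 and did not pass. CDK9, also on this list, rose in RT112 (0.40). A link of these changes to RN7SK was not tested. HEXIM1, the P-TEFb inhibitor in the particle, rose in 253J (0.87), and HEXIM2 in TCCSUP (1.12).

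Of 11 proteins of RNase P and RNase MRP, 4, 0, 1 and 1 rose and 3, 4, 4 and 1 fell, with list medians of -0.05, -0.44, -0.33 and -0.04. POP1, the largest subunit of both enzymes, fell in 253J (-1.35), J82 (-0.90), RT112 (-0.63) and TCCSUP (-0.62). In 253J, where RPPH1 rose and RMRP fell, RPP25 (2.00), POP5 (1.38), POP4 (0.74) and RPP14 (0.43) rose. In TCCSUP, where both RNAs rose, POP7 (0.64) rose. The POP1 fall in RT112 ended without RT112 control replicate 2 (-0.57, adjusted p = 0.05) or CM-1758 replicate 2 (-0.57, adjusted p = 0.0544), and that in TCCSUP without TCCSUP control replicate 2 (-0.54) or CM-1758 replicate 2 (-0.48).

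Of 10 proteins of box C/D particles and the U3 particle, 5, 0, 0 and 6 rose and 4, 2, 6 and 0 fell, with list medians of 0.18, -0.11, -0.45 and 0.52. NOP10, a box H/ACA protein that stood on the same list, fell in TCCSUP (-0.77) and was left out of these counts after its values were seen. NOP56, a core protein of these particles, fell in 253J (-0.53), J82 (-0.58) and RT112 (-1.14). RRP9, a U3-specific protein, rose in 253J (0.82) and TCCSUP (1.05) and fell in RT112 (-0.47).

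The machinery that transcribes the members was mixed in direction. Of 18 RNA polymerase III subunits 9, 1, 1 and 5 rose and 2, 5, 7 and 3 fell in 253J, J82, RT112 and TCCSUP, with list medians of 0.30, -0.23, -0.19 and 0.23. The list includes POLR1 and POLR2 subunits that other RNA polymerases also use. In 253J POLR2E (0.77), POLR2F (0.84), POLR2H (0.77), POLR2K (1.01) and POLR2L (1.33) rose. The other subunits that rose there were CRCP (0.59), POLR3A (0.62), POLR3F (0.45) and POLR3GL, and POLR1C (-0.45) and POLR3E fell. Medians without the shared subunits were not computed. POLR3E fell in every line (-0.69 to -1.11), while the exchangeable subunit POLR3GL rose in 253J (1.13), J82 (1.47) and RT112 (0.63) and its counterpart POLR3G rose in TCCSUP (1.51). Of 19 transcription factors 7, 2, 4 and 4 rose and 6, 7, 7 and 3 fell, with list medians of 0.27, -0.29, -0.18 and -0.09. GTF3C6, a subunit of TFIIIC, fell in all 4 lines, with changes of -2.52, -2.87, -2.69 and -3.30. MAF1, the repressor of RNA polymerase III, fell as well (-0.48, -0.89, -1.06 and -1.69), and ZNF143, an activator of RN7SK-type and snRNA promoters, rose (1.18, 0.49, 0.92 and 0.79). The MAF1 fall in 253J ended without 253J control replicate 3 (-0.37) or CM-1758 replicate 3 (-0.36), and the ZNF143 rise in J82 without J82 control replicate 1 (0.28) or CM-1758 replicate 3 (0.19). RN7SK, RPPH1 and RMRP belong to the class whose promoter lies upstream of the gene and does not use TFIIIC, whereas the 7SL genes combine elements inside and upstream of the gene.

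Of 9 genes of La protein and RNA 3′ end handling, 2, 2, 0 and 4 rose and 3, 4, 4 and 3 fell, with list medians of 0.16, -0.07, -0.28 and -0.06. DIS3L, a nuclease of the cytoplasmic exosome, fell in the 4 lines in the same order (-2.46, -2.04, -2.02 and -0.82). TOE1, a deadenylase that trims small RNA ends, fell too (-2.48, -1.94, -1.71 and -1.25), as did EXOSC10, a nuclease of the nuclear exosome (-1.04, -1.22, -0.70 and -1.30).

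Among the other RNA polymerase III transcripts RN7SL3 had a mean of 22187 counts per library, and the rest had few. Whether the library preparation retained the shortest of them was not tested. Of 19 listed, 12 were tested and 1, 2, 4 and 4 rose, while 1, 0, 0 and 0 fell. The most abundant after RN7SL3 was the brain cytoplasmic RNA BCYRN1, with 54 to 513 counts per library. BCYRN1 had 109 and 114 counts in the TCCSUP controls and 428 and 513 after CM-1758 (2.06 ± 0.26, adjusted p = 1.32e-05). It was also higher in RT112, with 54 and 78 against 143 and 99 counts (1.09 ± 0.27, adjusted p = 0.00451), and lower in 253J, with 176 and 165 against 97 and 105 counts (-0.78 ± 0.26, adjusted p = 0.0222). The RT112 call ended without RT112 control replicate 1 (0.82) or CM-1758 replicate 1 (0.77), and the 253J call ended without any 1 of its 4 libraries (-0.72 to -0.84). SNAR-A1, a small primate RNA, had 16 and 13 counts in the RT112 controls and 68 and 64 after CM-1758 (2.39 ± 0.49, adjusted p = 0.00124). In J82 it had 0 and 0 counts in the controls and 8 and 7 after CM-1758, and in TCCSUP 1 and 1 against 21 and 23, so no fold is given there. The vault RNA VTRNA1-3 had 66 to 125 counts in RT112 and TCCSUP and at most 1 in 253J and J82.

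Of the 22 tested stable noncoding RNAs made by RNA polymerase II, chiefly spliceosomal and Cajal body RNAs, 2, 3, 12 and 7 rose and 5, 0, 3 and 1 fell in 253J, J82, RT112 and TCCSUP, with list medians of 0.02, 0.12, 0.96 and 0.25. TERC, the RNA template of telomerase, fell in RT112 (-1.35) and 253J (-0.93), and the Cajal body RNA SCARNA6 rose in J82 (0.53), RT112 (1.24) and TCCSUP (0.94). The remaining rows of the 7SL family were tested for 29 of 141 symbols, members included, of which 0, 0, 3 and 2 rose. Of 4 tested RN7SK pseudogenes, RN7SKP80 fell in RT112 (-0.72), where RN7SK fell too. Whether the rows shared reads was not tested.

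The genes whose pattern over the 16 libraries was most like the summed share of the 7 genes were found among 9977 genes by the root mean square difference of their centred log2 shares. RN7SL1 was nearest at 0.164 and RN7SL2 was at rank 3 with 0.174. The nearest genes outside the 7 were GNL2 at 0.168, DDX24 at 0.183, POR at 0.187, PANK2 at 0.190 and NSUN5 at 0.195, where the median gene stood at 0.675. RPPH1 stood at 0.585 and ranked 3689, RMRP at 0.438 and ranked 1449, and SNORD3A at 0.426 and ranked 1290. RN7SL4P stood at 0.214 and ranked 16, and RN7SK at 0.250 and ranked 52. The members are parts of the sum, with RN7SL1, RN7SL2 and RN7SK its largest, so their closeness to it is a description only.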

How the data were processed

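RNA was sequenced in 16 libraries (TruSeq stranded total RNA with ribosomal RNA removal). Values were the counts per gene that the authors deposited in 1 table of 35993 rows. The submitters' processing notes name HISAT2, StringTie and GRCh37. The counter, the strand setting and the treatment of reads that map to several copies are not given in the sources used here, and 98 rows hold the same non-zero value in all 16 libraries. Groups were taken from the sample labels, and labelled replicates were counted as separate experiments.

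Counts were tested with edgeR 4.0.16 (R 4.3.3): filterByExpr (21297 genes kept), TMM factors from 0.846 to 1.13, a group-means model with 8 residual degrees of freedom, quasi-likelihood tests and Benjamini-Hochberg adjustment over all tested genes within a contrast. The difference between lines was an F test of the 4 effects. TMM-scaled CPM were computed from the deposited counts. DESeq2 1.42.0, other scalings, other filters, a replicate block, summed copies and fits leaving out each library were alternatives, and the sum of the U3 rows was chosen after seeing the data. The scripts were tested on simulated data. Sequences and lengths were GENCODE release 29, aligned with MAFFT 7.526 and Biopython 1.88, and 0 of the 7 genes had an entry in the RefSeq promoter table. Named genes beside the members were those of the lists that passed in one direction in all 4 lines, other polymerase III transcripts with a mean of at least 10 counts, and examples chosen after their values were seen. The members and lists were chosen with earlier results of these data known. Some sequences and gene results are not reported here.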

Additional observations from a re-analysis of the deposited data

Results flagged for a closer look

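The effect of CM-1758 on RPPH1 differed between the 4 cell lines (edgeR, adjusted p = 0.00875). It was higher in 2 of 2 treated libraries in 253J and TCCSUP, with changes of 1.02 and 0.82, and the groups overlapped in J82 and RT112.

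The effect of CM-1758 on RMRP differed as well (edgeR, adjusted p = 0.0124). Both treated libraries lay below both controls in 253J (-0.52) and above both controls in TCCSUP (0.56). Both differences stayed past the threshold under each scaling and filter tried and in the 16 fits that left out 1 library. The replicate block is not counted here, because it rests on 1 library against 1 in 253J. DESeq2 was not run for this difference, and 51.9% of all tested genes differed between the lines at this threshold.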

How the results depend on the processing

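With 2 libraries per group the spread rests on 8 residual degrees of freedom, and near-identical copies limit each 7SL and U3 row. The rises of RPPH1 in 253J and TCCSUP passed in every fit, but the replicate block rests on 1 library against 1 in 253J and is no check there. TMM without the 7 genes moved no count of calls among the 7 genes. TMM by default trims the most abundant genes, the 7 among them, so that fit could change little and is no check of the scale.

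The number of the 7 genes higher in 253J was 1 and became 3 with RLE scaling, no filter on low counts, a minimum of 10 counts in every library, edgeR on each line alone or DESeq2 with all lines in 1 model, and 4 with the library total, the library total without the 7 genes or DESeq2 on each line alone. The number lower in 253J was 1 and became 0 with either library total or the minimum of 10 counts. The number lower in J82 was 0 and became 1 with no filter, the replicate block or DESeq2 with all lines. In those fits 11.9%, 20.6% and 16.5% of all tested genes fell in J82. In RT112 the number higher was 0 and became 1 with DESeq2 on that line alone, where 25.7% of all tested genes rose. The number lower in RT112 became 0 with the minimum of 10 counts, where 26.5% of all tested genes fell. The number higher in TCCSUP was 2 and became 6 with either library total and 5 with the replicate block or DESeq2 on that line alone. Over these fits 19.4 to 38.7% of all tested genes rose and 14.8 to 32.4% fell in 253J, and 21.2 to 46.9% rose in TCCSUP, with the most rises under the library total without the 7 genes. At the study thresholds each of these counts was 0. Leaving out 1 library gave 1 to 3 higher and 0 to 1 lower in 253J, 0 to 1 lower in RT112, 1 to 2 higher in TCCSUP and 9 to 18 of the 42 comparisons of control lines.

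Replicate numbers did not pair the libraries: deviations of same-numbered libraries correlated at 0.0529, 0.218, 0.0427 and 0.0173 in 253J, J82, RT112 and TCCSUP, so the block counts above are given only here. In 253J only replicate number 3 was shared between the groups. Its block effects rest on 1 library against 1, and its block counts are left out.

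Small changes that no fit called turned sign. With the library total, and with the library total without the 7 genes, RN7SK became 0.21 and 0.28 in 253J and 0.21 and 0.34 in TCCSUP, RN7SL1 0.13 and 0.16 in J82 and 0.0118 and 0.00829 in RT112, RN7SL2 0.0626 and 0.0594, RN7SL4P 0.13 and 0.13 and RMRP 0.12 and 0.12 in RT112, and RN7SL3 0.23 and 0.30 in 253J and 0.13 and 0.16 in J82. With the minimum of 10 counts RN7SK became 0.0162 in 253J and 0.0453 in TCCSUP, RN7SL1 0.0974 in J82, RN7SL2 0.0396, RN7SL4P 0.11 and RMRP 0.10 in RT112, and RN7SL3 0.0368 in 253J and 0.10 in J82. With RLE scaling, and equally with DESeq2 in 1 model, RN7SL1 became 0.0735 and RN7SL3 0.0761 in J82, RN7SL4P 0.0591 and RMRP 0.0511 in RT112, and RN7SL3 0.00175 in 253J. In 253J the replicate block, resting there on 1 library against 1, gave -0.21 for SNORD3A. The summed copies gave 0.0309 for 7SL in J82, and edgeR on J82 alone gave 0.000797 for RN7SL3. Without 1 library the lowest and highest values were -0.16 and 0.0336 for RN7SK, -0.0882 and 0.18 for SNORD3A and -0.29 and 0.25 for RN7SL3 in 253J. In J82 they were -0.24 and 0.26 for RN7SL1, -0.22 and 0.40 for RN7SL2, -0.18 and 0.40 for RN7SL4P, -0.20 and 0.22 for RN7SL3 and -0.11 and 0.36 for BCYRN1. In RT112 they were -0.41 and 0.19 for RN7SL1, -0.35 and 0.22 for RN7SL2, -0.34 and 0.34 for RN7SL4P, -0.30 and 0.0103 for RPPH1, -0.0651 and 0.00449 for RMRP and -0.42 and 0.15 for RN7SL3.

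With the library total the falls of SRP72 and MAF1 in 253J and POP1 in TCCSUP and the mean fall of RN7SK lost significance, and the mean rises of RN7SL1, RN7SL2, RN7SL4P, SNORD3A and RMRP passed (0.27 to 0.51). The means of RN7SL2, RN7SL4P and SNORD3A also passed with RLE scaling (0.31 to 0.35) and the minimum of 10 counts (0.36 to 0.41), that of SNORD3A with no filter (0.24), and the minimum of 10 counts ended the mean fall of RN7SK (-0.16). The cause of these shifts beyond the altered scale, filter or number of libraries was not tested.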
